A study of Triticum polonicum with 8 samples.

Results

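The genes described here are those of wheat whose identifiers carry the arm code 7AL or 7BL, the long arms of chromosomes 7A and 7B, and which were expressed in roots. The arms were picked with earlier results of these data known. Within them, members were set by identifier and level alone: the arm code, and a mean of at least 1 CPM (the count divided by the total of its library and brought to a common scale) over the 8 deposited columns. This gave 1454 of the 2733 genes coded 7AL and 1589 of the 3345 coded 7BL, 3043 members in all, of 51500 genes at that level and 124856 genes in the table. Each identifier also holds a scaffold number and a serial number. The serial numbers of the 3232 scaffolds of both arms did not interleave, though some scaffolds skip numbers. Of the 6078 serial numbers 6075 were multiples of 10, so genes 10 apart on 1 scaffold number are called neighbours here. The files give no gene names, positions or sequences, so no role is attached to any gene, and few identifiers are printed.

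Roots of dwarf Polish wheat (Triticum polonicum), aged 4 weeks, were sampled after 1 week of treatment and frozen. The design crossed Ca/K supply, Cd and Zn. In N0 libraries the solution held calcium nitrate at 4 mM and potassium nitrate at 5 mM. N2 libraries had 8 mM and 10 mM of these salts, so that calcium, potassium and nitrate rose together. Cd libraries had 80 µM CdCl2, Zn libraries 500 µM Zn, and the others the basal 5 µM Zn, which gives N0, N0_Cd, N0_Zn, N0_Cd_Zn, N2, N2_Cd, N2_Zn and N2_Cd_Zn. The submitters state 3 biological replicates per treatment, but the tables hold 1 column for each, and the sources used here do not say whether replicates were pooled. A difference between 2 libraries therefore has no replicate check. Where values of the 4 basal (N0) or 4 raised (N2) libraries are listed, the order is no metal, Cd, Zn, and both metals.

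Polish wheat is tetraploid, with A and B subgenomes inherited from different grass ancestors, and most genes exist as an A and a B copy (homoeologues) at matching places on the paired chromosomes. The group 7 long arms are best known in pasta wheats for a phytoene synthase gene of grain yellow pigment. Roots take up zinc and cadmium partly through the same transporters, and calcium and nitrate are both nutrients and signals there. Near-identical homoeologues can share reads, which makes the value of any single gene uncertain to that extent, and in whole roots a change in cell make-up and a change per cell cannot be told apart.

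Library totals ran from 20000875 to 25241789 counts, and 3 counts corresponded to 0.119 to 0.150 CPM. N0_Cd_Zn correlated more with the libraries without metal than with the other metal libraries. Across the 3043 members, which are not independent, its log2(CPM + 1) correlated with N0 at r = 0.88 and N2 at r = 0.86, but at r = 0.74 to 0.76 with the other 5 libraries. Correlations among those others are not given here. Comparisons that use N0_Cd_Zn name it, and the variation between libraries, the recurrent changes, the model calls and the neighbour counts are also given without it.

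Both arms were expressed at much the same level, and 7BL held slightly more of the counts. The 7AL members held between 3.13% (N0_Cd_Zn) and 3.36% (N2_Zn) of a library, and the 7BL members between 3.26% (N0_Zn) and 3.45% (N2_Cd_Zn). 7AL lay below 7BL in all 8 libraries. The log2 ratio of summed 7AL over summed 7BL was -0.05 ± 0.03 (SD, n = 8), with a two-sided exact sign-flip p = 0.0078, the smallest that 8 libraries can give. The sums run over 1454 members of 7AL and 1589 of 7BL, the same genes in every library. A steady offset from gene number alone can give 1 sign in all 8 libraries, so this p says nothing of the level per gene. Without the 10 most abundant members of each arm the mean ratio was -0.037, with an exact sign-flip p = 0.047. In that case 7AL was no longer below 7BL in every library. By the median gene the order was the other way round. The median level per length was 4.63 FPKM (counts scaled by gene length and library total) for 7AL and 4.19 FPKM for 7BL, and in every library the 7AL median was above that of 7BL. The lowest median of both arms was in N0_Zn (3.41 and 3.16 FPKM) and the highest in N2 (4.54 and 4.32 FPKM). These FPKM values are scaled by library total alone. By TMM, the scaling used below for pairs of libraries, N0_Zn had the lowest factor (0.866) and N2 the highest (1.14). The order of libraries by median therefore depends on the scaling. Members of both arms had like median lengths, 1792 and 1829 bases.

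**Figure D1:**
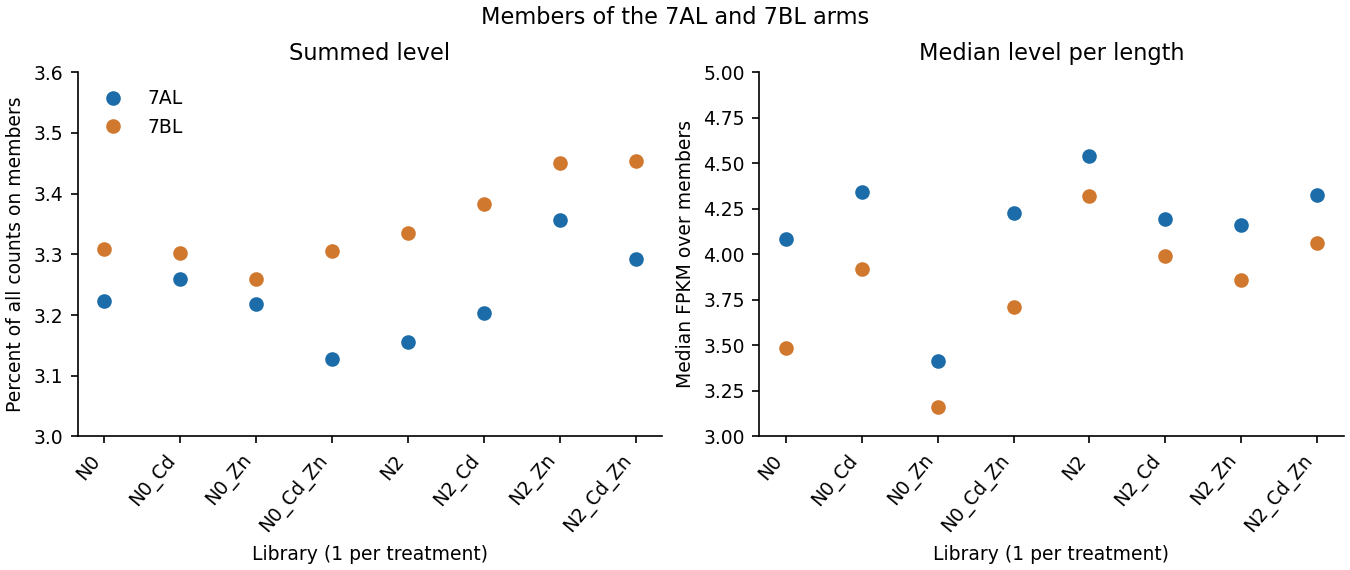
Left, the percent of a library's counts that fell on 7AL (blue) and 7BL (orange) members, with an axis that starts at 3.0; right, the median FPKM over the members of each arm, with an axis that starts at 3. Each point is 1 library. The 7BL sum is above the 7AL sum in all 8 libraries, and the 7AL median is above the 7BL median in all 8.

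No effect of Cd, Zn or Ca/K on the summed levels passed the test. The tests covered 6 values, the log2 ratio of the arms and the percent of counts on both, each for Cd, Zn and Ca/K, 4 libraries against 4 by a two-sided exact permutation test whose smallest p is 0.029. The smallest p of the 6 was 0.11, for the percent of counts on both arms with Ca/K. That percent was 6.66% ± 0.145 (SD, n = 4) at raised supply and 6.50% ± 0.0578 (SD, n = 4) at basal supply, exact permutation p = 0.11, Benjamini-Hochberg adjusted p = 0.51. The other 5 raw p-values, from the same exact permutation test, ran from 0.17 to 0.97. The reads coded 7DL, an arm of a subgenome that tetraploid wheat lacks, were few: 179 of 2708 genes reached the level rule, with 0.145% to 0.165% of a library.

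Each sum was spread over many genes. The 10 most abundant members made up 15.6% of the 7AL counts and 16.5% of the 7BL counts. On the short arms 7AS and 7BS the same shares were 15.3% and 15.9%. A mean of 100 CPM was reached by 54 members of 7AL and 49 of 7BL. On 7AL the most abundant was TRIAE_CS42_7AL_TGACv1_557220_AA1778310, at 1163, 651, 1550.01 and 689 CPM in N0, N0_Cd, N0_Zn and N0_Cd_Zn and 598, 639, 555 and 939 CPM in N2, N2_Cd, N2_Zn and N2_Cd_Zn. It was highest in N0_Zn and N0 and spread 2.79-fold from lowest to highest. The next, on scaffold 557592 (AA1783720), stood at 192, 773, 528 and 406 CPM in the 4 basal libraries and 224, 737, 1110.5 and 1570.1 CPM in the 4 raised ones. Both no-metal libraries were its lowest. On 7BL the most abundant, on scaffold 577340 (AA1872780), stood at 676, 941, 1225 and 368 CPM in the 4 basal libraries and 730.3, 917, 1129 and 1454 CPM in the 4 raised ones, lowest in N0_Cd_Zn. The second, on scaffold 581229 (AA1916770), kept within 1.79-fold, from 539 CPM in N0_Zn to 966 CPM in N0_Cd_Zn. At the other end, 45 of the 7AL and 40 of the 7BL members had no count in at least 1 library. The members just inside the level rule had means of 1.00 CPM (7AL) and 1.01 CPM (7BL), and the genes just outside it 0.983 and 0.997 CPM.

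Members of both arms varied about as much over the 8 treatments as other genes did. The median SD of log2(CPM + 1) was 0.51 for 7AL and 0.49 for 7BL, beside 0.48 over all 51500 genes. The ratio of highest to lowest level was 2-fold or less in 29.3% of 7AL and 29.6% of 7BL members (31.5% of all genes) and 8-fold or more in 14.4% and 13.3% (12.2%). Without N0_Cd_Zn the 2-fold shares were 34.3% and 35.2% (37.1%), and the 8-fold shares 11.3% and 10.8% (9.23%). Among members with a mean of at least 20 CPM, the steadiest of 7AL was on scaffold 556731 (AA1769830), between 29.2 and 35.2 CPM. The steadiest of 7BL was on scaffold 578789 (AA1900130), between 42.9 and 51.0 CPM. The most variable were 556472_AA1763730 on 7AL, from 0.396 to 299.8 CPM, and 576916_AA1859680 on 7BL. The latter stood at 233, 1.32, 1.78 and 217 CPM in N0, N0_Cd, N0_Zn and N0_Cd_Zn and 44.9, 0.506, 0.321 and 0.300 CPM in N2, N2_Cd, N2_Zn and N2_Cd_Zn. It was high in N0, N0_Cd_Zn and N2 and at 1.78 CPM or less in the other 5 libraries.

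The highest and lowest levels fell most often in N0_Zn and N0_Cd_Zn. N0_Zn was the highest library for 22.5% of 7AL and 23.9% of 7BL members (22.3% of all genes) and the lowest for 22.8% and 22.2% (21.8%). N0_Cd_Zn was the highest for 18.4% and 16.9% (18.4%) and the lowest for 22.6% and 23.2% (21.1%). Each of the other 6 libraries was the highest for between 8.05% and 13.4% of either arm. Without N0_Cd_Zn, N0_Zn was the highest of 7 for 23.7% and 25.2% (23.8%) and the lowest for 25.3% and 25.0% (24.5%).

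Zn at basal supply went with somewhat more lower than higher members on both arms, as it did over all genes. A member was counted when it differed 2-fold or more between 2 libraries, after TMM scaling and a prior count of 2, with at least 5 CPM in 1 of them. In N0_Zn against N0, 178 of 1921 members compared were higher and 223 lower (all genes: 8.24% higher, 10.5% lower; members: 9.27% and 11.6%). At raised supply, N2_Zn against N2, 234 were higher and 191 lower (all genes: 9.42% and 7.55%; members: 11.2% and 9.12%). With Cd present the split at basal supply was 276 higher and 467 lower in N0_Cd_Zn against N0_Cd (all genes: 13.8% and 19.3%). At raised supply it was 181 and 272 in N2_Cd_Zn against N2_Cd (all genes: 8.33% and 13.0%). Over these and the other pairs, the share of both arms together lay within 2.56 percentage points of that of all genes. With library totals in place of TMM, a scaling that moved the median of all genes by -0.14 and -0.20 on the log2 scale in the first 2 of these pairs, the splits were 133 to 256 and 179 to 229.

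Cd alone went with more higher than lower members at both supplies under TMM scaling, as it did over all genes. By library totals this held for members at basal supply alone. In N0_Cd against N0, 275 were higher and 171 lower (all genes: 12.1% and 8.62%; members: 13.5% and 8.38%). In N2_Cd against N2, 262 were higher and 176 lower (all genes: 12.3% and 7.95%); by library totals, with a shift of the median of all genes of -0.19, the split turned to 202 and 215. With Zn present, N0_Cd_Zn against N0_Zn gave 473 and 500 (all genes: 21.9% and 22.3%). Library totals, with the widest shift of that median (0.27), turned this to 550 and 390. At raised supply, N2_Cd_Zn against N2_Zn gave 125 and 172 (all genes: 6.23% and 8.29%). Both metals against none gave 227 and 300 at basal supply (all genes: 13.2% and 13.9%) and 252 and 254 at raised supply (all genes: 11.5% and 11.0%). By library totals, with shifts of 0.13 and -0.12, these became 274 to 261 and 208 to 284; median-of-ratios size factors gave 263 and 240 for the latter.

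Raised Ca/K went with many changes in every metal background, among members much as among all genes. In N2 against N0, 296 members were higher and 321 lower (all genes: 14.3% and 15.2%), a split that library totals, with a shift of the median of all genes of 0.25, turned to 411 and 240. In N2_Zn against N0_Zn, 456 were higher and 405 lower (all genes: 22.2% and 20.3%), or 536 and 328 by library totals with a shift of 0.19. In N2_Cd against N0_Cd, 206 were higher and 252 lower (all genes: 10.7% and 11.0%). In N2_Cd_Zn against N0_Cd_Zn, 476 were higher and 385 lower (all genes: 19.9% and 18.4%). The comparisons share libraries and are given side by side.

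The arms differed little from each other. Over the 28 shares (14 pairs, each direction), 7AL and 7BL lay within 1 percentage point of each other in 16, and 7AL was above 7BL in 17. The widest gap was 3.17 points, in N2 against N0, where 16.7% of 7AL and 13.6% of 7BL members were lower.

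**Figure D2:**
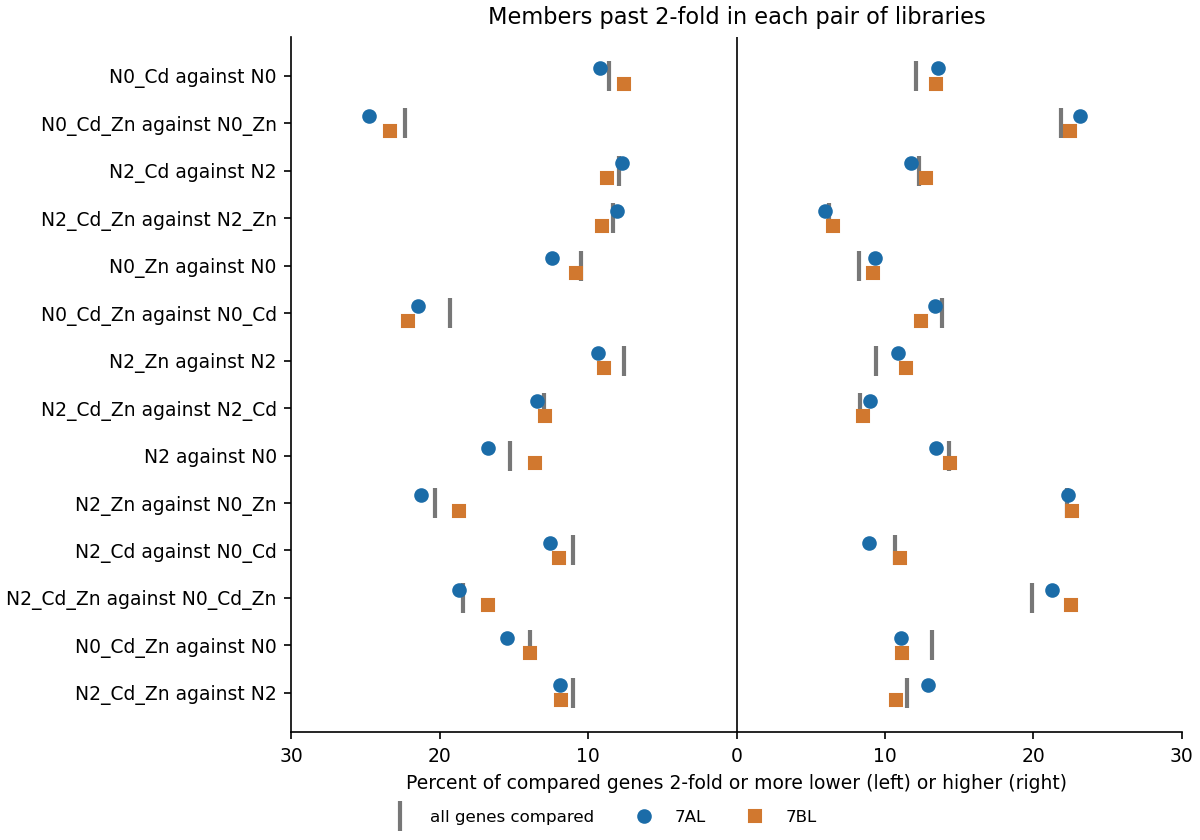
For each of the 14 pairs of libraries, the percent of compared genes 2-fold or more lower (left of 0) and higher (right of 0) in the first library named, for 7AL (circles), 7BL (squares) and all genes (grey bars). The arms lie within 3.17 points of each other in every pair, and the grey bars lie close to both.

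Some single members swung between near absence and high level. TRIAE_CS42_7AL_TGACv1_559593_AA1800230 had 117 CPM in N0 and 0.04 CPM (1 count) in N0_Cd, a ratio of 3007 with an exact 95% interval from 539 to 118827 for counting error only. In N0_Cd_Zn it was back at 127 CPM, and in N2_Cd_Zn at 0.10 CPM. On 7BL, TRIAE_CS42_7BL_TGACv1_578004_AA1887720 had no count in N0_Cd and 91.1 CPM in N0_Cd_Zn, at least 711-fold higher when 3 counts are put in place of its 0. It also had no count in N2_Cd against 32.3 CPM in N2, at least 206-fold lower. With Cd at basal supply the largest rises were from 0.413 to 23.9 CPM for 556962_AA1774180 (7AL) and from 1.12 to 58.6 CPM for 577757_AA1882690 (7BL). With Zn at basal supply the largest falls were from 160.1 to 0.475 CPM for 557494_AA1782120 (7AL) and from 35.8 to 0.119 CPM for 577109_AA1866120 (7BL).

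Few members kept a 2-fold change in 1 direction in all 4 pairs that differ in Cd or Zn, and more did so for Ca/K. For Cd, 1 member of 7AL and 1 of 7BL were higher in all 4 pairs, and none of 7AL and 1 of 7BL were lower (all genes: 0.0583% higher, 0.00388% lower). For Zn, 1 of each arm was higher (all genes: 0.00971%), and 6 of 7AL and 2 of 7BL were lower (all genes: 0.0777%; 7AL 0.413%, 7BL 0.126%). For Ca/K, 16 of 7AL and 26 of 7BL were higher (all genes: 1.10%) and 12 and 11 lower (all genes: 0.777%). Such counts were known when the arms were picked, so they are a description only. Without the pair that holds N0_Cd_Zn, 3 pairs are left and the rule is looser. Both arms together then had 21 higher and 6 lower for Cd (all genes: 0.565% and 0.105%), 16 and 23 for Zn (all genes: 0.450% and 0.433%), and 79 and 111 for Ca/K (all genes: 2.43% and 3.68%).

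With Cd, TRIAE_CS42_7AL_TGACv1_556459_AA1763560 was the recurrent higher member of 7AL. It stood at 5.66, 63.8, 1.82 and 11.7 CPM in N0, N0_Cd, N0_Zn and N0_Cd_Zn and 5.82, 34.9, 4.90 and 22.6 CPM in N2, N2_Cd, N2_Zn and N2_Cd_Zn. Each Cd library was above its partner without Cd, by 2.66 ± 0.58 on the log2 scale (SD, n = 4 pairs). On 7BL it was TRIAE_CS42_7BL_TGACv1_577469_AA1876020, at 5.25, 37.6, 3.33 and 26.1 CPM in the 4 basal libraries and 1.89, 15.8, 1.92 and 7.25 CPM in the 4 raised ones, a difference of 2.61 ± 0.59 (SD, n = 4 pairs). The lower member, TRIAE_CS42_7BL_TGACv1_576780_AA1854790, stood at 10.5, 5.24, 32.4 and 13.3 CPM in the 4 basal libraries and 15.3, 3.86, 33.1 and 12.7 CPM in the 4 raised ones. The same gene was the recurrent higher member of 7BL for Zn: it was lowest with Cd alone, highest with Zn alone, and in between with both metals. Its mean log2 difference was -1.45 ± 0.31 for Cd and 1.48 ± 0.25 for Zn (SD, n = 4 pairs).

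The most extreme recurrent lower member of 7AL for Zn, TRIAE_CS42_7AL_TGACv1_556472_AA1763730, stood at 39.8, 233, 0.396 and 0.929 CPM in N0, N0_Cd, N0_Zn and N0_Cd_Zn and 299.8, 196, 0.870 and 0.550 CPM in N2, N2_Cd, N2_Zn and N2_Cd_Zn. All 4 Zn libraries were below 1 CPM and all 4 others at 39.8 CPM or more, and the mean log2 difference was -7.65 ± 0.94 (SD, n = 4 pairs). On 7BL the lowest by that mean was TRIAE_CS42_7BL_TGACv1_577920_AA1886220, at 34.2, 73.2, 2.54 and 10.1 CPM in the 4 basal libraries and 87.5, 112, 3.02 and 8.25 CPM in the 4 raised ones, a difference of -3.73 ± 0.69. Here too the groups did not overlap: the highest Zn library (10.1 CPM) was below the lowest other library (34.2 CPM). Both genes were picked as the most extreme of those lower in all 4 Zn pairs, so such gaps follow in part from the choice. The recurrent higher member of 7AL, TRIAE_CS42_7AL_TGACv1_557700_AA1784910, stood at 4.47, 0, 45.9 and 7.39 CPM in the 4 basal libraries and 0.842, 0.0920, 10.9 and 6.35 CPM in the 4 raised ones. It was highest with Zn alone and had no count in N0_Cd.

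The minimum of 5 CPM hides further members whose level without Zn was low in N0. Without that minimum, a rule added after the values were seen, 12 of the 7AL and 8 of the 7BL members were 2-fold or more lower in all 4 Zn pairs (all genes: 0.225%; 7AL 0.825%, 7BL 0.503%). Of those left out by the minimum, 4 resembled AA1763730 in that every Zn library was below 1 CPM and N0_Cd, N2 and N2_Cd were above 20 CPM: AA1763720 and AA1763750 on scaffold 556472, 577387_AA1874120 and 577539_AA1878160. This likeness was defined from AA1763730 itself. No share of all genes under it is given here, so the 4 are a description only. The 7BL gene 577387_AA1874120 stood at 3.14, 31.9, 0.0792 and 0.0929 CPM in the 4 basal libraries and 28.6, 29.4, 0.229 and 0.400 CPM in the 4 raised ones. The other, 577539_AA1878160, stood at 1.74, 23.4, 0.0396 and 0 CPM in the 4 basal libraries and 20.1, 23.4, 0.183 and 0.350 CPM in the 4 raised ones. In both, N0 lay far below the other 3 libraries without Zn.

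With raised Ca/K, the largest recurrent rise of 7AL was TRIAE_CS42_7AL_TGACv1_558970_AA1797200, at 0.827, 3.16, 0 and 0.279 CPM in N0, N0_Cd, N0_Zn and N0_Cd_Zn and 5.46, 22.2, 48.4 and 9.50 CPM in N2, N2_Cd, N2_Zn and N2_Cd_Zn. On 7BL it was TRIAE_CS42_7BL_TGACv1_577121_AA1866510, at 0.496, 0.720, 0.277 and 0.232 CPM in the 4 basal libraries and 12.8, 23.2, 18.6 and 34.8 CPM in the 4 raised ones. The 7BL gene was below 1 CPM in every basal library and above 12 CPM in every raised one, by 5.34 ± 1.09 on the log2 scale (SD, n = 4 pairs). The 7AL gene varied more, by 4.74 ± 3.11. The largest recurrent fall of 7AL was TRIAE_CS42_7AL_TGACv1_556563_AA1765490, at 14.5, 15.96, 39.8 and 5.44 CPM in the 4 basal libraries and 0.401, 0, 0 and 1 CPM in the 4 raised ones. That of 7BL was TRIAE_CS42_7BL_TGACv1_579870_AA1910660, at 200.05, 119, 289.7 and 55.3 CPM in the 4 basal libraries and 18.3, 8.51, 12 and 14.6 CPM in the 4 raised ones. Their mean differences were -6.02 ± 2.94 and -3.55 ± 1.19 (SD, n = 4 pairs). In neither did a raised library reach the level of any basal library, which follows in part from picking the largest recurrent falls.

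**Figure D3:**
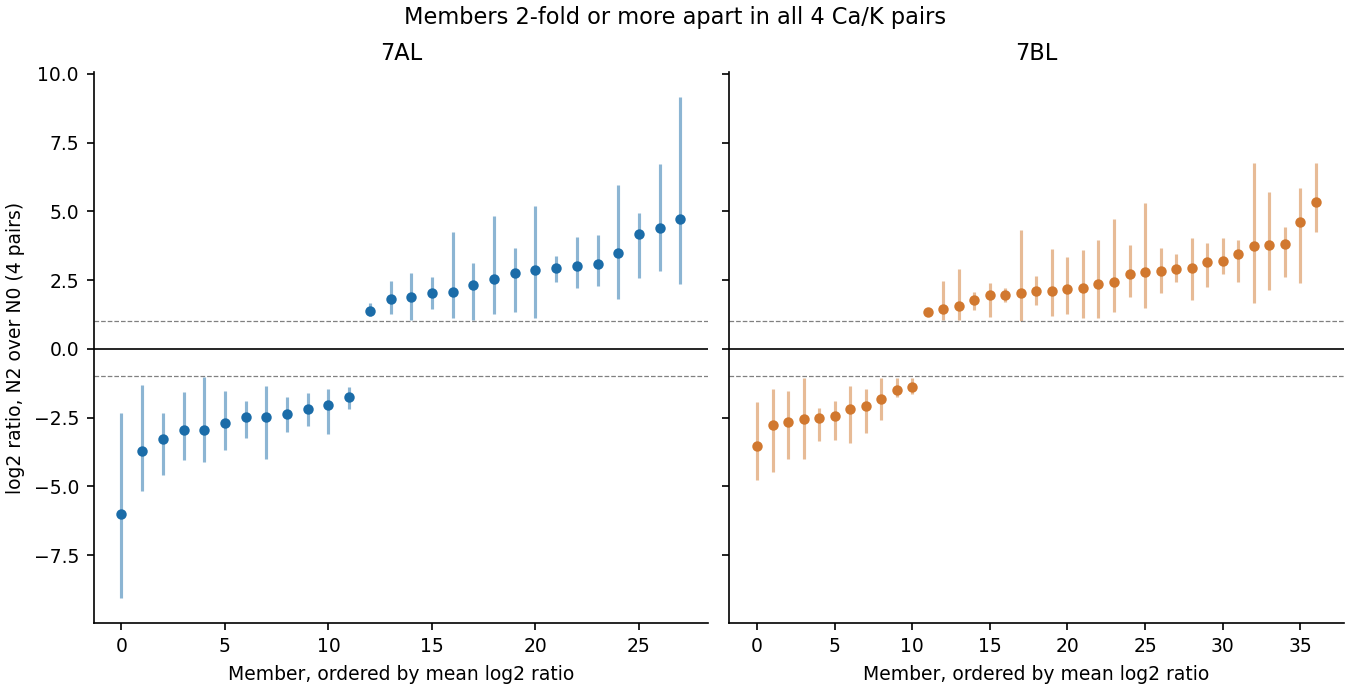
The 28 members of 7AL and 37 of 7BL that were 2-fold or more apart in the same direction in all 4 pairs of raised over basal Ca/K. Points are means of the 4 log2 ratios, bars run from the lowest to the highest of the 4, and dashed lines mark 2-fold; the means run from -6.02 to 4.74 on 7AL and from -3.55 to 5.34 on 7BL.

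An additive model over all 8 libraries, with terms for Ca/K, Cd and Zn, asks which changes recur beyond the residual spread. That spread, with 4 degrees of freedom, holds the interactions as well as noise. With edgeR's quasi-likelihood test and Benjamini-Hochberg adjustment over 64580 genes, 0 members passed an adjusted p of 0.05 for any factor (all genes: 0% for Cd and Zn in both directions, and for Ca/K 0% higher and 0.00155% lower). At an unadjusted p under 0.05, Cd had 32 higher and 19 lower members on 7AL and 36 and 26 on 7BL (all genes: 1.92% and 1.05%). Zn had 7 and 29 on 7AL and 12 and 24 on 7BL (all genes: 0.669% and 1.30%). Ca/K had 114 and 145 on 7AL and 140 and 156 on 7BL (all genes: 7.92% and 8.45%). DESeq2 at an adjusted p under 0.05 called 6 higher and 0 lower members of 7AL and 10 and 2 of 7BL for Cd (all genes: 0.395% and 0.0632%). For Zn it called 1 and 9 of 7AL and 2 and 9 of 7BL (all genes: 0.0573% and 0.187%). For Ca/K it called 80 and 104 of 7AL and 99 and 99 of 7BL (all genes: 5.10% and 5.37%). Without N0_Cd_Zn, edgeR called 33 higher and 87 lower members of 7AL and 37 and 71 of 7BL for Ca/K (all genes: 1.76% and 3.88%). For Cd and Zn it then called 0 members; at an unadjusted p under 0.05 there were 108 and 53 of 7AL and 123 and 56 of 7BL for Cd (all genes: 6.31% and 3.798%). For Zn there were 124 and 127 of 7AL and 123 and 143 of 7BL (all genes: 5.78% and 7.38%).

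For Ca/K, 1 member per arm and direction was picked by the smallest p of the additive model. Likeness between such picks, and a gap between basal and raised libraries, follow in part from that choice. The smallest p among higher members belonged to TRIAE_CS42_7AL_TGACv1_557712_AA1785060 on 7AL and TRIAE_CS42_7BL_TGACv1_579758_AA1909910 on 7BL. The first stood at 1.49, 2.04, 0.911 and 2.70 CPM in the 4 basal libraries and 13.6, 17.7, 11.7 and 15.1 CPM in the 4 raised ones. The second stood at 1.82, 1.60, 1.55 and 2.32 CPM in the 4 basal libraries and 15.9, 18.7, 13.2 and 12.9 CPM in the 4 raised ones. Basal and raised libraries did not overlap in either gene, and both stayed under 3 CPM at basal and above 11 CPM at raised supply. Their log2 fold changes were 2.98 ± 0.27 and 2.94 ± 0.26 (SE), each with an adjusted p of 0.054 by edgeR's quasi-likelihood test with Benjamini-Hochberg adjustment, and higher in 4 of 4 pairs.

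Among lower members the smallest p belonged to TRIAE_CS42_7AL_TGACv1_556045_AA1753580 and TRIAE_CS42_7BL_TGACv1_577494_AA1876920. The 7AL gene stood at 284, 141, 501 and 217 CPM in the 4 basal libraries and 60.97, 40.4, 81.1 and 71.3 CPM in the 4 raised ones. The 7BL gene stood at 277, 148, 358 and 207 CPM in the 4 basal libraries and 65.7, 34.2, 40.1 and 44.8 CPM in the 4 raised ones. In both, N0_Zn was the highest library and N0_Cd the lowest of the basal ones, and all raised libraries lay lower still. Their log2 fold changes were -2.18 ± 0.29 and -2.49 ± 0.29 (SE), with adjusted p-values of 0.073 and 0.065 in edgeR's quasi-likelihood test with Benjamini-Hochberg adjustment, and lower in 4 of 4 pairs. For Zn, the smallest p belonged to AA1763730 and AA1886220, described above. Their log2 fold changes were -7.95 ± 0.74 and -3.76 ± 0.35 (SE), each with an adjusted p of 0.19 by edgeR's quasi-likelihood test with Benjamini-Hochberg adjustment, and both were lower in 4 of 4 pairs. A shared direction in 4 pairs follows in part from the choice by smallest p. Whether these A and B genes are homoeologues cannot be read from the files.

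Members on the same scaffold varied together more than members on different scaffolds, though weakly. Of the members, 806 of 7AL lay on 315 scaffolds with more than 1 member, and 816 of 7BL on 331. Over the 8 libraries, the median Pearson r of log2(CPM + 1) was 0.15 for the 767 same-scaffold pairs of 7AL and 0.23 for the 693 of 7BL. Pairs on different scaffolds of the same arm had medians of 0.029 and 0.031. Over all A and B arms the same medians were 0.14 and 0.042. Pairs share libraries and genes, so no p is given. An r above 0.8 was reached by 8.21% of same-scaffold pairs on 7AL and 11.3% on 7BL, against 4.52% and 4.35% of the other pairs. Pairs with serial numbers 10 apart had medians of 0.19 and 0.24, and pairs farther apart 0.11 and 0.22. Among members with a mean of at least 5 CPM, the 7AL median was 0.094 and that of 7BL 0.21. With any 1 library left out, the medians ran from 0.13 to 0.17 and from 0.17 to 0.26, and were 0.13 and 0.26 without N0_Cd_Zn. Neighbouring genes can be near-identical copies that share reads, and the part of this in their r was not tested.

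**Figure D4:**
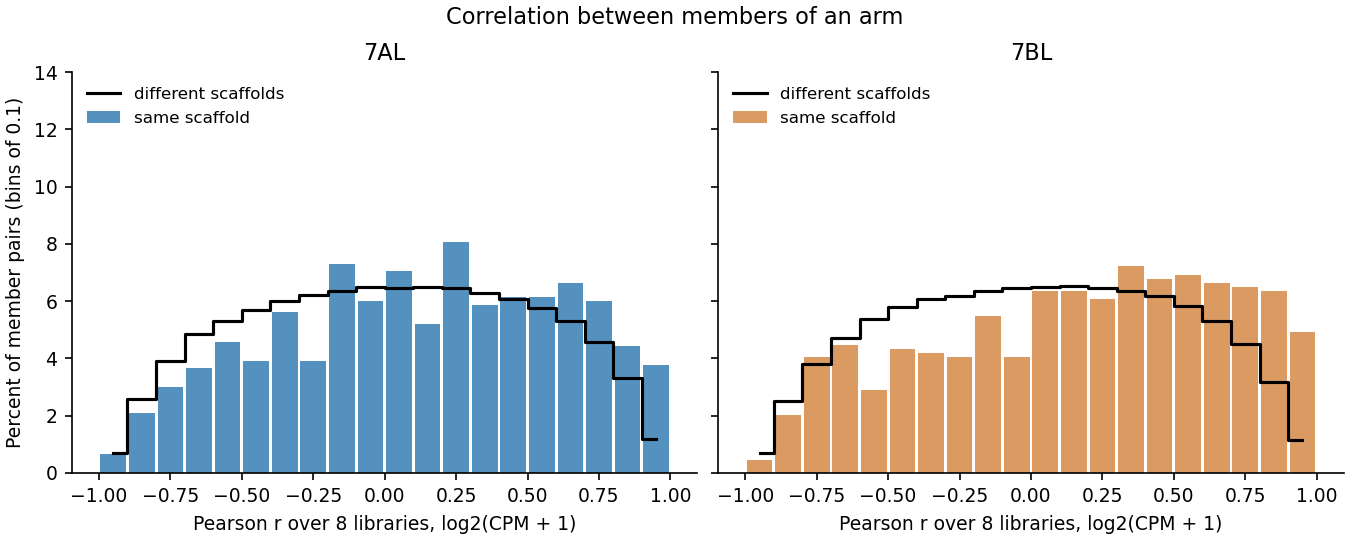
Percent of member pairs by Pearson r over the 8 libraries, in bins of 0.1, for pairs on the same scaffold (bars) and on different scaffolds of the arm (black line), 7AL left and 7BL right. The bars exceed the line at the highest r on both arms, with medians of 0.15 and 0.23 against 0.029 and 0.031.

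Direction followed the same pattern. When both members of a same-scaffold pair were 2-fold or more apart in a comparison, they went the same way in 319 of 458 cases on 7AL (69.7%) and 304 of 445 on 7BL (68.3%), summed over the 14 comparisons. The same gene pairs can count again in comparisons that share libraries, so the cases are not independent. Scaffolds with many members weigh more. On 7BL the 5 members of scaffold 577462 were called alike in several comparisons, and every pair among them counts each time. For pairs on different scaffolds the share lay between 49.9% and 53.8% in every comparison. The same-scaffold share was the higher in 13 of 14 comparisons on each arm; the exceptions were N2_Cd against N0_Cd on 7AL (7 of 15) and N2_Cd_Zn against N2_Cd on 7BL (8 of 17). In the 10 comparisons without N0_Cd_Zn the counts were 176 of 240 (73.3%) and 177 of 245 (72.2%).

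On scaffold 556472 of 7AL, 3 genes were near 0 together with Zn and the other member was not. AA1763730 is given above. AA1763720 stood at 4.51, 31.5, 0.0792 and 0.558 CPM in the 4 basal libraries and 35.02, 26.8, 0.137 and 0.150 CPM in the 4 raised ones. AA1763750 stood at 1.82, 34.6, 0.0396 and 0 CPM in the 4 basal libraries and 36.7, 26.9, 0.183 and 0 CPM in the 4 raised ones. In all 3 genes N0_Cd, N2 and N2_Cd were high, N0 was lower, and the Zn libraries were near 0. The remaining member, AA1763770, stood at 7.11, 17.6, 12.7 and 4.23 CPM in the 4 basal libraries and 5.50, 6.76, 8.43 and 10.1 CPM in the 4 raised ones, with no such drop. In N0_Cd against N0 all 4 were higher, and in N0_Cd_Zn against N0_Cd all 4 were lower.

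Scaffold 557389, also of 7AL, repeated the pattern in a neighbouring pair. AA1780660 stood at 7.15, 46.8, 0.0792 and 0.465 CPM in the 4 basal libraries and 62.5, 59.5, 0.0916 and 0.250 CPM in the 4 raised ones. AA1780670 stood at 9.84, 57.8, 0.317 and 1.02 CPM in the 4 basal libraries and 59.4, 49.6, 0.275 and 1.25 CPM in the 4 raised ones. The order of the 4 Zn libraries below the other 4 was the same in both genes, and their r of 0.995 over 8 libraries describes that split. It was the highest r of same-scaffold pairs of 7AL among members with a mean of at least 5 CPM. The third gene of the scaffold, AA1780650, had a mean of 0.978 CPM and so is not a member.

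Scaffold 577462 of 7BL held the most members called alike in 1 comparison, 5, with serial numbers from AA1875840 to AA1875880. The most abundant, AA1875870, stood at 29.9, 43.6, 89.1 and 16.96 CPM in N0, N0_Cd, N0_Zn and N0_Cd_Zn and 2.01, 4.05, 8.24 and 9.55 CPM in N2, N2_Cd, N2_Zn and N2_Cd_Zn. AA1875840 stood at 32.3, 23.4, 64.02 and 6.23 CPM in the 4 basal libraries and 0.963, 0.690, 1.83 and 7.65 CPM in the 4 raised ones. All 5 were highest in N0_Zn and lowest in N2 or N2_Cd. All 5 were 2-fold or more higher in N0_Zn against N0, and lower in N2_Zn against N0_Zn, N2_Cd against N0_Cd, N0_Cd_Zn against N0_Zn and N0_Cd_Zn against N0_Cd. All 5 were also lower in N2 against N0, though AA1875880 (0.361 against 4.84 CPM) did not reach the 5 CPM minimum there. In N2_Cd_Zn against N0_Cd_Zn the 5 genes parted: AA1875850 was at 3.65 against 1.39 CPM, and AA1875880 at 1.05 against 3.90 CPM. Their mean levels lay between 4.55 and 25.4 CPM, and the sixth gene of the block, AA1875890, had 0.145 CPM.

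Scaffold 577483 of 7BL showed the opposite order. Its 4 members were all 2-fold or more higher in N2_Zn than in N0_Zn. AA1876500 stood at 14.5, 29.96, 12.8 and 22.03 CPM in the 4 basal libraries and 75.6, 69.1, 77.4 and 99.1 CPM in the 4 raised ones, above in every raised library. AA1876460 stood at 4.18, 10.3, 0.832 and 0.883 CPM in the 4 basal libraries and 9.47, 8.002, 18.7 and 6 CPM in the 4 raised ones. Its neighbour AA1876470 stood at 2.85, 7.44, 0.594 and 0.465 CPM in the 4 basal libraries and 5.66, 6.62, 11.8 and 4.70 CPM in the 4 raised ones, with r = 0.993 over the 8 libraries. Both were below 1 CPM in N0_Zn and N0_Cd_Zn and highest in N2_Zn, whereas AA1876500 was highest in N2_Cd_Zn. AA1876490, with a mean of 2.46 CPM, was also lowest in N0_Zn and N0_Cd_Zn.

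**Figure D5:**
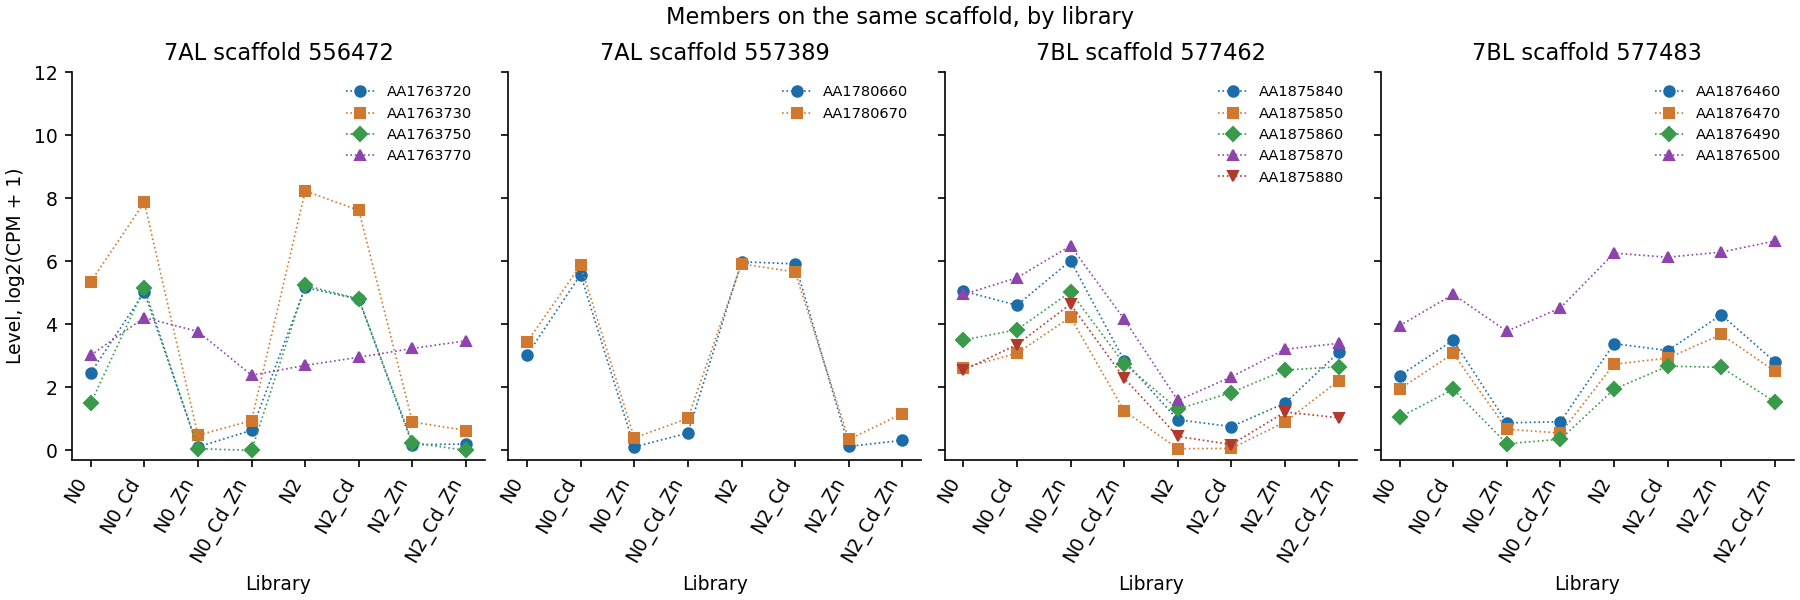
Level of each member on 4 scaffolds, as log2(CPM + 1), by library; dotted lines only join the points of 1 gene. On scaffolds 556472 and 557389 all members but AA1763770 are near 0 in the 4 Zn libraries, on 577462 all 5 peak in N0_Zn, and on 577483 AA1876460, AA1876470 and AA1876490 are lowest in N0_Zn and N0_Cd_Zn.

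Scaffolds with at least 3 members numbered 109 on 7AL and 110 on 7BL, and all members were called in the same direction in 8 instances on 5 scaffolds of 7AL and 8 instances on 4 scaffolds of 7BL. These scaffolds are 4.59% and 3.64% of those, beside 3.85% over all A and B arms. Without N0_Cd_Zn there were 4 instances on each arm, on 3.67% and 1.82% of the scaffolds (all A and B arms: 2.31%). Without N0 there were 3 on 7AL, and without N0_Zn 3 on 7BL. On 7AL scaffold 556952, AA1774080 stood at 139, 68.6, 175 and 52.2 CPM in the 4 basal libraries and 36.4, 19.1, 52.6 and 60.7 CPM in the 4 raised ones. Its neighbour AA1774090 stood at 137, 83.2, 199 and 61.3 CPM in the 4 basal libraries and 46.2, 18.9, 69.7 and 72.2 CPM in the 4 raised ones. Both were highest in N0_Zn and lowest in N2_Cd. The scaffolds with the most members were not called alike as a whole in any comparison. On 7AL scaffold 556574, with 8 members, AA1765960 kept between 121.8 and 172.2 CPM in all libraries, while AA1765930 went from 9.76 CPM in N0_Cd_Zn to 132.4 CPM in N2_Zn. On 7BL scaffold 578789, with 6 members, 5 stayed within 2-fold over the 8 libraries, and AA1900110 ranged from 10.3 CPM in N2_Zn to 47.3 CPM in N0_Zn.

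Neighbours could also run in opposite directions. On 7AL scaffold 556695, AA1769090 stood at 23.7, 15.2, 24.1 and 18.2 CPM in the 4 basal libraries and 13.2, 9.61, 8.84 and 9.80 CPM in the 4 raised ones. Its neighbour AA1769100 stood at 62.02, 95.7, 61.1 and 70.1 CPM in the 4 basal libraries and 129.6, 139, 166 and 128 CPM in the 4 raised ones. The first was lower and the second higher in every raised library than in its basal partner. Their r of -0.97 over 8 libraries was the lowest of 7AL among members with a mean of at least 5 CPM. On 7BL the lowest by the same rule was r = -0.94, for AA1873910 and AA1873920 of scaffold 577383.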

How the data were processed

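RNA of whole roots was measured in 8 libraries, 1 for each treatment. Per the labels' protocols, Trizol was used for total RNA and an Illumina TruSeq kit for the libraries; the design text names long-read sequencing instead. Bowtie2 2.0.6 and TopHat2 2.0.12 are listed in the submitters' processing notes. The counter, its strand setting and the genome build were not given in the sources used here. Identifiers with arm codes name TGACv1 models of Chinese Spring, a bread wheat with a D subgenome. The authors deposited whole-number counts per gene and FPKM values, which equalled count over length and column total, so that FPKM served only for lengths and levels per length.

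All 16 columns match a treatment's title. CPM is the count scaled to the column total. Pairs of libraries were compared as log2 ratios of TMM-scaled CPM with a prior count of 2; members that reached 5 CPM in either library counted as apart at 2-fold, with no test. The additive model was fitted on all genes with edgeR 4.0.16 in R 4.3.3 (filterByExpr with a minimum count of 10, robust quasi-likelihood test, Benjamini-Hochberg adjustment at 0.05). Its p-values reflect how a change recurs over unlike treatments and say nothing of replicate spread. On simulated data of 62586 genes with the fitted spread, a Cd effect was called for 37 of 100 genes with a 4-fold change, 92 of 100 with a 16-fold change and 6 others. Intervals on folds are exact 95% binomial intervals that cover counting error only, and folds against 0 counts use a floor of 3 counts in that library. Alternatives were median-of-ratios size factors, library totals, prior counts, level rules, DESeq2 1.42.0, no low-count filter, leaving out each library and, added after the values were seen, sign-flip tests over matched pairs.

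Members and rules were chosen with earlier results of these data known. Printed genes are, per arm, the 2 most abundant, the steadiest and most variable, those with the largest ratio in a pair (at least 20 CPM in 1 library), the most extreme recurrent ones, those with the smallest p per factor and direction, and the scaffolds and neighbour pairs with the most members, the most members called alike, and the highest and lowest r. The pairs with the highest and lowest r were sought among members with a mean of at least 5 CPM. Scaffolds 557389, 577483 and 556952 and the genes found without the 5 CPM minimum were picked after their values were seen.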

Additional observations from a re-analysis of the deposited data

Results flagged for a closer look

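Each of the 6 effects on the summed levels can be split by either of the other 2 factors. In 3 of these cases the effect had opposite signs in the 2 settings, in both pairs of each. The cases were picked by sign alone, whatever the size. Each difference, 2 pairs against 2, had a two-sided exact permutation p of 0.33, the smallest that this design can give. Picking cases with opposite signs in both pairs fixes that p in advance, so it is no support for a difference.

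The log2 ratio of summed 7AL over 7BL moved with Cd by 0.020 (N0_Cd against N0) and 0.0014 (N2_Cd against N2) without Zn, and by -0.061 (N0_Cd_Zn against N0_Zn) and -0.029 (N2_Cd_Zn against N2_Zn) with Zn. The percent of counts on both arms moved with Cd by 0.0286 and 0.0964 percentage points without Zn (N0_Cd against N0 and N2_Cd against N2), and by -0.0467 and -0.0602 with Zn (N0_Cd_Zn against N0_Zn and N2_Cd_Zn against N2_Zn). The same percent moved with Zn by -0.0548 (N0_Zn against N0) and -0.130 (N0_Cd_Zn against N0_Cd) points at basal Ca/K, and by 0.316 (N2_Zn against N2) and 0.159 (N2_Cd_Zn against N2_Cd) points at raised Ca/K.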

How the results depend on the processing

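The labels carry no replicate numbers, so no replicate block was fitted. Over the 4 matched pairs of each factor, a test added after seeing the data, the 6 effects on summed levels had two-sided exact sign-flip p from 0.25 to 1, where 0.125 is the smallest possible. The mean ratio of the arms stayed negative under all its alternatives (-0.058 to -0.049 with 1 library left out). It was smallest in size, -0.037, without the 10 most abundant members of each arm. Of the effects of factors on summed levels, none of which passed a test, the Cd effect on the percent of counts turned to -0.0140 points with members of at least 5 CPM and ran from -0.0502 to 0.0808 with 1 library left out. The Zn effect on the arm ratio was -0.0012 with members of at least 5 CPM, -0.018 without the 10 most abundant members of each arm, and -0.0095 to 0.013 with 1 library left out. The Zn effect on the percent was -0.0834 points without those 10.

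Without the minimum of 5 CPM, more genes are compared and counts rose. In parentheses is the share of all genes; that of members lay within 2.86 percentage points of it in every pair and direction. For Cd there were 449 higher (13.1%) and 329 lower (10.8%) in N0_Cd against N0, 782 lower (22.9%) in N0_Cd_Zn against N0_Zn, 345 lower (10.5%) in N2_Cd against N2, and 245 (7.95%) and 261 (8.92%) in N2_Cd_Zn against N2_Zn. For Zn there were 283 (8.55%) and 495 (15.1%) in N0_Zn against N0, 715 lower (20.6%) in N0_Cd_Zn against N0_Cd, 324 lower (9.52%) in N2_Zn against N2, and 340 higher (10.2%) in N2_Cd_Zn against N2_Cd. For Ca/K there were 475 higher (16.0%) in N2 against N0, 713 higher (23.2%) in N2_Zn against N0_Zn, 381 lower (11.3%) in N2_Cd against N0_Cd, and 748 higher (21.7%) in N2_Cd_Zn against N0_Cd_Zn. Both metals gave 563 lower (16.4%) in N0_Cd_Zn against N0, and 398 (11.7%) and 392 (12.3%) in N2_Cd_Zn against N2. With members of at least 5 CPM, fewer genes enter, and 4 counts fell by more than 1.5 times: 108 lower (5.68%) for N2_Cd against N2, 172 higher (9.51%) for N0_Cd_Zn against N0_Cd, 125 lower (5.19%) for N2_Zn against N2, and 146 higher (9.70%) for N0_Cd_Zn against N0. Members' shares were within 2.35 points of all genes.

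Members 2-fold apart in all 4 pairs numbered, without that minimum (chosen after seeing the data), 9 higher and 2 lower for Cd (all genes: 0.280% and 0.0447%), 5 and 20 for Zn (0.0408% and 0.225%), and 88 and 40 for Ca/K (2.39% and 1.37%). With 1 library and its pair left out they ran from 2 to 21 higher and 1 to 6 lower for Cd (all genes: 0.0718% to 0.565% and 0.0155% to 0.260%). For Zn they ran from 2 to 16 and 8 to 23 (0.0369% to 0.450% and 0.122% to 0.433%), and for Ca/K from 47 to 79 and 23 to 111 (1.31% to 2.43% and 0.858% to 3.68%). Library totals left 0 lower for Cd. DESeq2 called 18 members for Cd, 21 for Zn and 382 for Ca/K, where edgeR called 0; edgeR with 1 library left out called 0 for Cd and Zn and from 0 to 228 for Ca/K, the last without N0_Cd_Zn. The 7AL same-scaffold median r was 0.0937 with members of at least 5 CPM, 0.069 above other pairs, and 0.192 for neighbouring serial numbers. The cause of these shifts was not tested.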
